A study of Mus musculus with 136 samples.

Results

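The libraries described here are the 34 visceral yolk sacs, of 136 libraries in the dataset, that came from concepti with 5 or 6 somite pairs on day 8.5 of gestation. A yolk sac was placed at this stage by the somite count given for the embryo library of the same conceptus. All concepti and dams were of the NOD strain, whose females can become diabetic without treatment as they lose insulin-producing cells, and all animals were fed chow. The diabetic group held 17 yolk sacs from 9 litters of hyperglycemic dams, with labelled maternal blood glucose between 449 and 595 mg/dl and 1 litter given only as above the range of the meter. The normal group held 17 yolk sacs from 10 litters of normoglycemic dams with glucose between 105 and 164 mg/dl. The diabetic group had 12 male and 5 female yolk sacs, 13 of them with 5 somite pairs and 4 with 6, and the normal group had 9 male and 8 female yolk sacs, 11 with 5 somite pairs and 6 with 6. No litter gave more than 4 of the libraries. The comparison asked which transcripts of the visceral yolk sac differed with maternal diabetes at this stage, and, where none did, how large a difference these libraries leave room for.

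The visceral yolk sac feeds the conceptus before a placenta is in place. Its outer layer, the visceral endoderm, takes up maternal proteins and lipoproteins by endocytosis, breaks them down in lysosomes, and secretes serum proteins and apolipoproteins toward the embryo. Its inner layer is extraembryonic mesoderm, in which the first blood vessels and the primitive erythroid cells of the blood islands form. As whole tissue was sequenced, fewer cells of a type and less RNA per cell cannot be told apart in any value given below.

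Totals ranged from 1694117 to 3888137 counts per library under diabetic and from 1226712 to 3549343 under normal conditions. The labelled tissue was visible in every library. Transcripts of 10 visceral endoderm markers, among them alpha-fetoprotein (Afp) and transthyretin (Ttr), summed to 7047 to 13185 CPM, counts scaled to a common library total, under normal and 4580.1 to 11571 under diabetic conditions. The median of that sum in the 34 embryos of the same concepti was 288 CPM, and the yolk sac median was 31.9 times as high. Primitive erythroid markers had medians of 3573 CPM under normal and 3534 under diabetic conditions, against 16.4 in embryos. Markers of the embryo proper lay at 6.44 to 81.5 CPM in the yolk sacs, compared with a median of 458 in embryos. Counts of Xist and of Y-linked genes matched the sex label of 34 of 34 yolk sacs, including 1 male yolk sac whose embryo was labelled female.

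Transcripts of 2 neighboring tissues were spread unevenly. The 7 trophoblast markers summed to 0.493 to 195 CPM under normal (median 14.7) and to 0 to 538 CPM under diabetic conditions (median 54.3). Above the highest normal yolk sac were 3 diabetic ones, from the litters D28M36 and D28M53, and Tfap2c made up most of the sum there. Of the 7 markers, 4, among them the trophoblast hormones Prl3d1 and Prl3b1, had a median of 0 over the 34 libraries. The 5 markers of decidua, the maternal tissue that surrounds the conceptus, summed to 0.440 to 6.21 CPM (median 1.69) and to 0 to 177 CPM (median 8.28), and 9 diabetic yolk sacs of 5 litters exceeded the highest normal one. In the embryos the median was 27.1 CPM for the trophoblast sum and 11.1 CPM for the decidual sum. The medians of all yolk sacs were 16.5 and 2.93 CPM, so low sums are not particular to these tissues. Leukocyte markers did not exceed 5.67 CPM in any yolk sac.

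**Figure D1:**
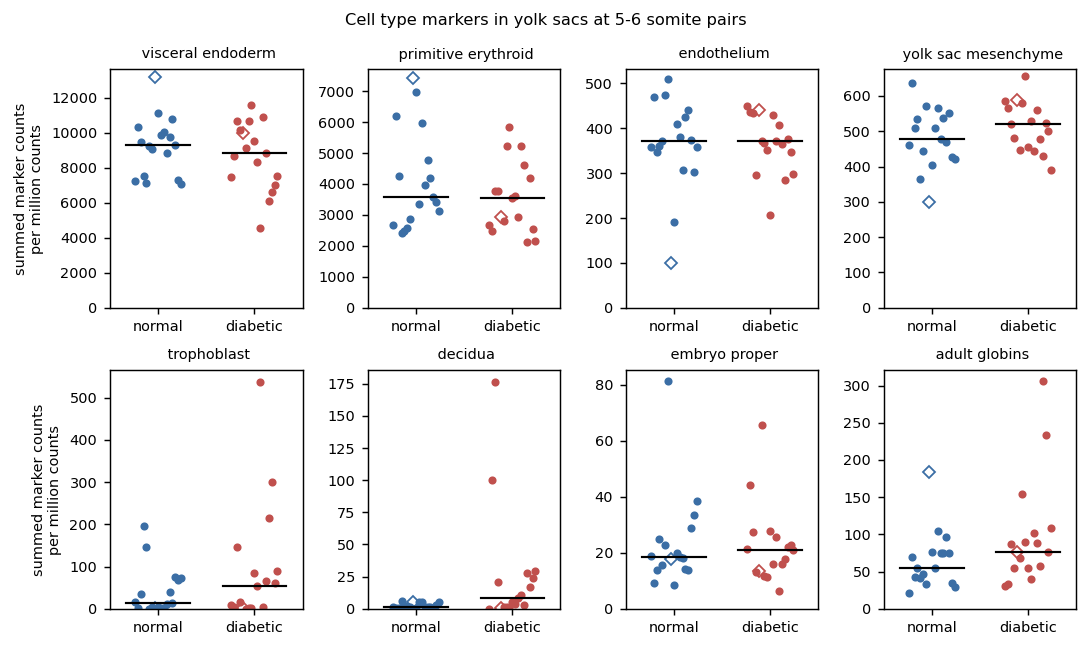
Summed CPM of marker genes of each cell type, 1 point per yolk sac, with normal and diabetic libraries side by side, medians as black bars and the libraries N28M06A and D28M02G as open diamonds. Visceral endoderm sums lie between 4580.1 and 13185 CPM in every library, while trophoblast and decidua sums range from 0 to 538 and 177 CPM.

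A pair of libraries stood apart from the others. The normal yolk sac N28M06A had a median Spearman correlation with the other libraries of 0.856 and the diabetic yolk sac D28M02G one of 0.882, while the remaining 32 lay between 0.933 and 0.969. In N28M06A, cytosolic ribosomal protein genes held 7.32% of all counts, against 2.81 to 3.92% in the remaining libraries. In D28M02G, Gm42418, a gene model that overlaps ribosomal RNA, held 15.8%, against 2.68 to 12.3%. The comparison was made with all 34 libraries, and values without both are given where they move a result.

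No gene of the 34 yolk sacs passed the test for a difference between diabetic and normal pregnancies. Of 10250 genes tested with edgeR's quasi-likelihood test, 0 had a Benjamini-Hochberg adjusted p under 0.05 (0% of those tested), and the smallest adjusted p was 0.0670. At an unadjusted p under 0.05 there were 863 genes, 8.42% of those tested, of which 347 (3.39%) had a log2 fold change above 0 and 516 (5.03%) one below 0. Without N28M06A and D28M02G there were 707, 337 above and 370 below 0, and the count was 411 with limma's fit in which litter was a random block. DESeq2's Wald test, run without a filter beforehand, gave a p-value for 26858 genes, 1236 of them at an unadjusted p under 0.05. Its default filter on low means applied to the adjusted p. It called 4 genes, Rras, Prl4a1 and Prl8a2 upward and Elovl5 downward. By the same edgeR test, 161 of 11004 genes (1.46%) were called in the embryos of the same concepti and 2 of 10317 (0.0194%) in yolk sacs with 7 to 9 somite pairs.

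The bounds on change were narrow for most genes. The 95% confidence interval of the fold change lay wholly within 2-fold in either direction for 10104 of the 10250 genes (98.6%) and within 1.5-fold for 8782 (85.7%). The median gene had its farther interval end at 1.30-fold. These are intervals for single genes and do not cover all genes at once. Among the 1520 genes with a mean under 20 normalized counts, 1469 were bounded within 2-fold and 930 within 1.5-fold. Among the 3938 genes with a mean between 50 and 200 the numbers were 3907 and 3661, and among the 306 with a mean of at least 1000 they were 305 and 270. With litter as a random block the bounds were wider, with 10026 genes within 2-fold and 8409 within 1.5-fold. The spread between libraries, as edgeR's common biological coefficient of variation, was 28.6% in the normal and 24.03% in the diabetic group, and 24.5% and 21.6% without N28M06A and D28M02G.

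**Figure D2:**
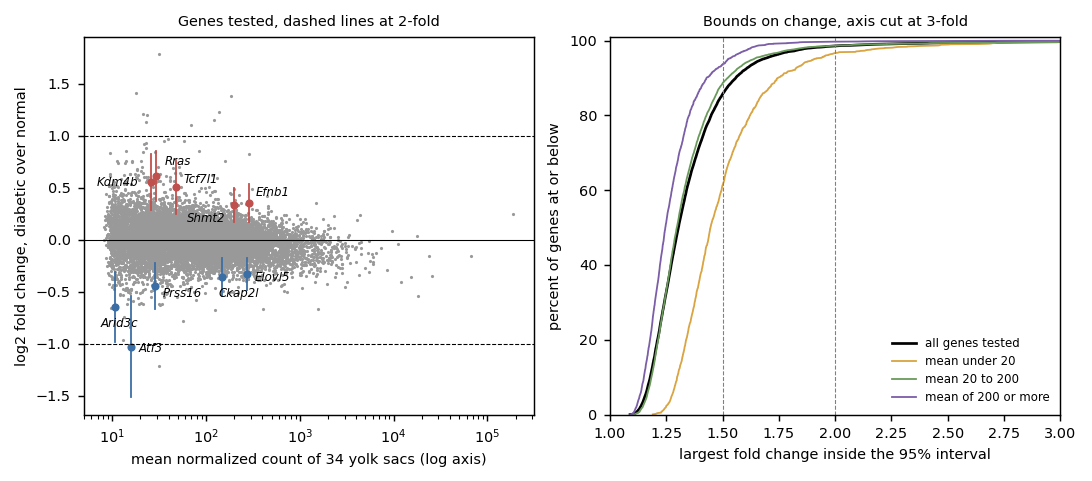
Left, log2 fold change, diabetic over normal, against mean normalized count (log axis) for the 10250 genes tested (grey), with the 5 genes above (red) and 5 below 0 (blue) that have the smallest p and their 95% intervals. Right, the percentage of genes whose largest fold change inside the 95% interval is at or below the value on the x axis, for all genes and by mean level, reaching 85.7% at 1.5-fold and 98.6% at 2-fold for all genes.

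The intervals of 146 genes reached past 2-fold, of which 51 had a mean under 20 normalized counts and 57 one between 20 and 50. A fitted change larger than 2-fold was found for 11 of them. The gene with the farthest interval end was Plet1, a gene of trophoblast and other extraembryonic epithelia, chosen here after its values were seen. It was found at 1.22 to 119 normalized counts (median 9.08) under normal and 2.05 to 363 (median 9.51) under diabetic conditions, and its log2 fold change was 1.78 (95% interval 0.51 to 3.06). Tfap2c, a transcription factor of the trophoblast lineage, was found at 0 to 396 normalized counts (median 26.9) under normal and 0 to 1125 (median 105) under diabetic conditions. Its log2 fold change was 1.23 (95% interval -0.23 to 2.68). The libraries with the highest Plet1 and Tfap2c in the diabetic group were those of the litters D28M36 and D28M53 in which the trophoblast sum was highest, and the groups overlapped for each. Without D28M36 the log2 fold change of Tfap2c was 0.71, and without D28M53 it was 0.83. Plet1 fell below the filter on low counts in each of these fits and without N28M06A and D28M02G, so it has no value there. Of the 15 trophoblast genes listed, 7 were tested, 0 passed, 0 had an unadjusted p under 0.05, and 1 was bounded within 2-fold. Their median log2 fold change was 0.95 in the 34 libraries and 0.53 with litter as a random block, against 0.00 for all genes tested. It was 0.38 without the single library of D28M36, and over the 19 fits that left out 1 litter it ran from 0.38 to 1.68, with 0 to 5 genes at an unadjusted p under 0.05. The part of adhering trophoblast in these values was not tested.

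Decidual transcripts were mostly below the filter on low counts. Prl8a2, a prolactin-family hormone of the decidua, was at 0 to 15.4 normalized counts (median 1.39) under normal and 0 to 319 (median 9.51) under diabetic conditions. Prl4a1, a trophoblast hormone of the same family, was at 0 to 1.39 normalized counts (median 0) under normal and 0 to 24.8 (median 1.003) under diabetic conditions. The highest value of Prl8a2 was in D24M15E, and the next highest in its littermate D24M15C. With every gene that had a count tested in edgeR, 0 of 26858 passed, 1829 had an unadjusted p under 0.05, and the log2 fold changes were 3.66 for Prl8a2 (adjusted p = 0.0601) and 4.00 for Prl4a1 (adjusted p = 0.0601). Psg29 and Prl7a1, a pregnancy-specific glycoprotein and another prolactin-family gene, had fitted values of 4.14 and 4.78 with the highest normal library at 2.15 and 3.09 normalized counts. Since many libraries hold no count of these 4 genes, chosen after their values were seen, the fitted folds depend on the prior count and are no bounds.

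The gene nearest to a call was Rras, which encodes the small GTPase R-Ras, a regulator of integrin-mediated adhesion and of vessel stability. Rras (chr7:45017961-45021647, GRCm38, plus strand) was found at 11.9 to 31.5 normalized counts (median 24.1) under normal and 20.3 to 45.96 (median 34.2) under diabetic conditions. Of the 17 diabetic yolk sacs, 16 were above the normal median and 9 above the highest normal library, so that the groups overlapped. The log2 fold change was 0.61 (standard error 0.12, 95% interval 0.37 to 0.85), with an adjusted p of 0.0670. It passed the threshold in 6 of 34 alternative fits and missed it in the other 28, including the fit with litter as a random block (adjusted p = 0.775). These fits share most of their libraries, and 19 of them leave out a litter each. Leaving out the litter D28M27 repeats the fit without the male yolk sac whose embryo was labelled female. In yolk sacs with 7 to 9 somite pairs the log2 fold change of Rras was 0.02, and in embryos of the same stage it was 0.00.

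Next among the genes with a log2 fold change above 0 came 4 genes of chromatin, one-carbon metabolism and signaling. Kdm4b (chr17:56326062-56402870), a demethylase of histone H3, was found at 13.04 to 32.4 normalized counts (median 19.1) under normal and 24.03 to 50.2 (median 29.1) under diabetic conditions. Its log2 fold change was 0.55 (95% interval 0.28 to 0.82), and the lowest diabetic library was above the normal median. Shmt2 (chr10:127517123-127522444), the mitochondrial enzyme that splits serine to supply one-carbon units, was at 113 to 237 normalized counts (median 176) under normal and 191 to 254 (median 214) under diabetic conditions, with a log2 fold change of 0.33 (95% interval 0.17 to 0.49). Here too every diabetic yolk sac lay above the normal median. Tcf7l1 (chr6:72626378-72789254), a repressor of Wnt targets, was at 17.8 to 61.4 normalized counts (median 38.6) under normal and 38.9 to 73.04 (median 58.9) under diabetic conditions, with a log2 fold change of 0.51 (95% interval 0.25 to 0.77). Efnb1 (chrX:99136130-99148991), which encodes ephrin-B1, a membrane ligand in cell sorting and vessel formation, was at 166 to 343 normalized counts (median 247) under normal and 232 to 390.4 (median 325) under diabetic conditions, with a log2 fold change of 0.35 (95% interval 0.17 to 0.54). The groups overlapped for all 4 genes, and the adjusted p was 0.308 for each.

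On the other side of 0, the gene with the smallest p was Elovl5 (chr9:77917364-77984519), which encodes an elongase of polyunsaturated fatty acids. It was found at 248 to 426 normalized counts (median 291) under normal and 159.8 to 293 (median 249) under diabetic conditions. The log2 fold change was -0.33 (standard error 0.08, 95% interval -0.48 to -0.18), and 8 diabetic yolk sacs were below the lowest normal one. Atf3 (chr1:191170296-191218039), a stress-induced transcription factor, was at 2.37 to 54.4 normalized counts (median 17.2) under normal and 5.01 to 19.9 (median 10.2) under diabetic conditions. Its log2 fold change of -1.03 (standard error 0.24, 95% interval -1.52 to -0.54) was the farthest from 0 of the 10 genes nearest to a call. Its normal libraries were spread over a wide range, which held the whole diabetic range only through N28M06A, the lowest at 2.37. The next lowest normal library, N28M05J, was at 11.6, above the diabetic median, and the groups still overlapped without N28M06A. Prss16, a serine protease known from the thymus, Ckap2l, a spindle protein, and Arid3c, a DNA-binding protein, had log2 fold changes of -0.45 (95% interval -0.67 to -0.23), -0.36 (95% interval -0.55 to -0.18) and -0.65 (95% interval -0.98 to -0.31), with groups that overlapped. The adjusted p was again 0.308 for each of these 5 genes.

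**Figure D3:**
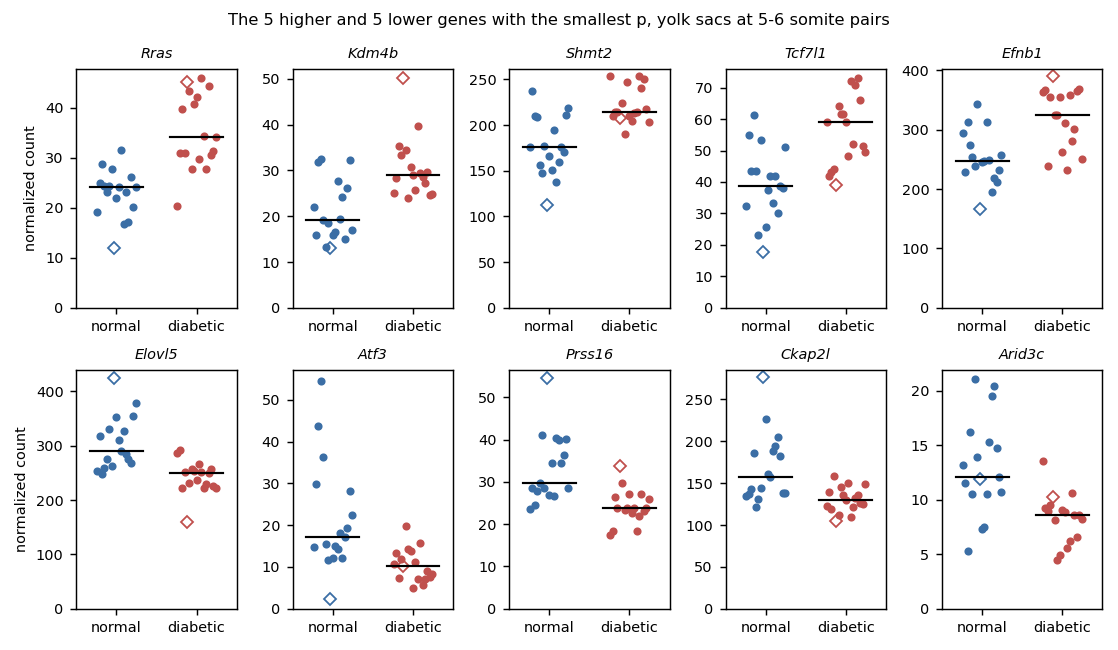
Normalized counts of the 5 genes above and the 5 genes below 0 with the smallest p, 1 point per yolk sac, medians as black bars, N28M06A and D28M02G as open diamonds. The groups overlap in each panel, and 9 of 17 diabetic yolk sacs lie above the highest normal one for Rras.

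Averaged per litter, Rras was above every normal litter in 8 of 9 diabetic litters. With litter as a random block the adjusted p of the 10 genes lay between 0.775 and 0.999, and with counts summed per litter it was at least 0.998 for each. Rras passed at an adjusted p of 0.0136 without the diabetic litter D23M11, whose single library held the lowest diabetic value. Atf3 passed without N28M06A (adjusted p = 0.0488, log2 fold change -1.11) and without the litter N28M06. With the libraries of title number 28 alone its log2 fold change was -0.54 (adjusted p = 0.294), and without the litter N24M29, which held its highest normal value, it was -0.79 (adjusted p = 0.262). Elovl5 passed in DESeq2 (adjusted p = 0.0456).

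Counts of list members at an unadjusted p under 0.05 often moved when a litter was left out. They moved by more than 1.5 times in at least 1 of the 19 fits that left out 1 litter for 43 of 48 lists. By that measure they were lower for 23 lists and higher for 6 without the normal litter N28M06. A step from 0 to 1 gene counts as such a move, so the measure is easily met by lists with few genes at that level. In the main comparison 8.42% of all genes were at that level, 3.39% above and 5.03% below 0, the shares to set beside each list. Over all genes there were 499 without N28M06, 236 above and 263 below 0.

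Genes that define the visceral endoderm were bounded much as other genes were. Of 17 listed transcription factors, 14 were tested, 0 passed and 0 had an unadjusted p under 0.05, with a median log2 fold change of 0.06. All 14 were bounded within 2-fold and 12 (85.7%) within 1.5-fold, against 98.6% and 85.7% of all genes. The median farther interval end of the list was 1.36-fold, against 1.30-fold for all genes. Foxa2, a forkhead factor of endoderm, was the most abundant of them and Hnf4a, a nuclear receptor that drives secretory genes, the one with the smallest p. Hnf4a was at 109 to 203 normalized counts (median 151) under normal and 68.9 to 169 (median 137) under diabetic conditions, with a log2 fold change of -0.16 (95% interval -0.35 to 0.04), and the groups overlapped almost fully.

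The secreted products of that layer had values below 0 by small amounts. Of 24 serum and retinol-binding proteins, 12 were tested, 0 passed, 2 had an unadjusted p under 0.05 (16.7% of the 12, both below 0, against 5.03% of all genes), and 12 of 12 had a log2 fold change below 0, while 5016 of all 10250 genes had one above 0. Their median was -0.14, and it was -0.09 without N28M06A and D28M02G. Without the normal litter N28M06 it was -0.03, with 0 genes at that level. Spink1, a secreted trypsin inhibitor that was the most abundant of them, was at 5672 to 25233 normalized counts (median 8146) under normal and 4736 to 9584 (median 7881) under diabetic conditions, with a log2 fold change of -0.29 (95% interval -0.58 to 0.00), or -0.16 without both libraries. Ambp, the precursor of alpha-1-microglobulin, gave -0.40 (95% interval -0.74 to -0.06). Afp, the main serum protein of the fetus, had the widest interval of the list, with a log2 fold change of -0.34 (95% interval -0.77 to 0.08).

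Apolipoproteins and the proteins that load lipoproteins lay on both sides of 0. Of 19 listed, 16 were tested, 0 passed, 0 had an unadjusted p under 0.05, the median log2 fold change was -0.03, and 15 of the 16 were bounded within 1.5-fold. Apoe, the most abundant, was at 3403 to 5854 normalized counts (median 4230.0) under normal and 2691 to 6523 (median 3932) under diabetic conditions, with a log2 fold change of -0.03 (95% interval -0.25 to 0.18). Apob, the structural protein of the particles, had the widest interval of the list at 0.11 (95% interval -0.41 to 0.62).

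Uptake and breakdown of maternal protein was also bounded. Among 21 tested genes of the endocytic receptor complex, which binds and internalizes maternal ligands, 1 was above and 1 below 0 at an unadjusted p under 0.05, and the median was 0.03. Picalm, a clathrin adaptor protein, had the lowest value at -0.18 (95% interval -0.34 to -0.02). Of 40 tested lysosomal cathepsins, membrane proteins and proton pump subunits, 4 had an unadjusted p under 0.05, all below 0 (against 5.03% of all genes), and 31 had a log2 fold change at or below 0. All 40 were bounded within 2-fold and 39 within 1.5-fold. Ctsl, the most abundant cathepsin here, was at 3511 to 13253 normalized counts (median 5638) under normal and 2937 to 9082 (median 5267) under diabetic conditions, with a log2 fold change of -0.14 (95% interval -0.42 to 0.15) with and 0.00 without both libraries, and Atp6ap2, an accessory subunit of the proton pump, gave the lowest value at -0.32 (95% interval -0.52 to -0.11).

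Lipid synthesis held Elovl5, 1 of the genes nearest to a call, while the medians of its lists lay near 0. Of 24 tested genes of cholesterol synthesis and its regulation, 2 had an unadjusted p under 0.05, Fdft1 and Ebp, both below 0, and the median was 0.05. Without the litter N28M06 there were 3, all above 0, and without the single library of D28M36 there were 3, all below 0, with a median of -0.05. In embryos of the same concepti the median of this list was -0.32. Hmgcs1, an early enzyme of the pathway, was the most abundant, at 222 to 446 normalized counts (median 331) under normal and 219.9 to 759.9 (median 341) under diabetic conditions, with a log2 fold change of 0.06 (95% interval -0.19 to 0.31). Among 17 tested genes of fatty acid synthesis and desaturation only Elovl5 had an unadjusted p under 0.05, and all 17 were bounded within 2-fold. Among 26 tested genes of fatty acid oxidation, which burns fatty acids in mitochondria and peroxisomes, 1 was above and 1, Acot1, below 0 at an unadjusted p under 0.05, with a median of -0.07.

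Genes of glucose metabolism had medians near 0 as well. Of 28 glycolytic genes, 23 were tested and 0 passed, with a median of 0.06. At an unadjusted p under 0.05, 2 were above (Pfkp and Pfkfb3) and 2 below 0 (Pfkfb4 among them). They were 17.4% of the 23, against 8.42% of all genes. All 7 genes of the pentose phosphate pathway were bounded within 1.5-fold. Of 22 tested enzymes of gluconeogenesis, glycogen, polyol and hexosamine metabolism, 3 were above and 2 below 0 at an unadjusted p under 0.05. That was 22.7% of the 22, against 8.42% of all genes. Pcx, pyruvate carboxylase, gave the highest value at 0.40 (95% interval 0.01 to 0.79) and Fbp2, a fructose bisphosphatase, the lowest at -0.55 (95% interval -0.95 to -0.15).

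Genes known to respond to glucose inside the cell lay on both sides of 0. Of 8 alpha-arrestins and MondoA-type glucose sensors, 7 were tested, and 4 had log2 fold changes above 0. Txnip, the thioredoxin-binding arrestin that glucose induces in many cells, was at 4.54 to 282 normalized counts (median 60.2) under normal and 12.3 to 118 (median 77.95) under diabetic conditions, with a log2 fold change of -0.18 (95% interval -0.87 to 0.51). Arrdc4, its close relative, was at 6.68 to 23.7 normalized counts (median 10.97) under normal and 8.59 to 25.1 (median 14.9) under diabetic conditions, with a log2 fold change of 0.31 (95% interval -0.02 to 0.64). Mlxipl, which encodes the glucose sensor ChREBP, was at 10.7 to 66.3 normalized counts (median 42.01) under normal and 17.05 to 42.5 (median 26.8) under diabetic conditions and gave -0.51 (95% interval -0.88 to -0.15), the only gene of the list with an unadjusted p under 0.05. The groups overlapped for all 3.

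In the insulin and IGF pathway, 20 of 23 tested genes had log2 fold changes above 0, with a median of 0.08, but 0 had an unadjusted p under 0.05, and without N28M06A and D28M02G the median was 0.03. Igfbp4, a binding protein of IGFs, had the smallest p at 0.11 (95% interval -0.06 to 0.29). Solute carriers as a family had 178 tested members of 368, with 8 above and 10 below 0 at an unadjusted p under 0.05 (10.1% of the 178, against 8.42% of all genes), and 176 of them were bounded within 2-fold. Of 22 glucose and fatty acid carriers in the study's own table, 6 were tested, 0 passed and 6 were bounded within 1.5-fold, and Slc2a2, a low-affinity glucose carrier, was the only one at an unadjusted p under 0.05, with -0.24 (95% interval -0.42 to -0.06). Among all solute carriers the highest value was that of Slc38a4, an amino acid transporter, at 0.48 (95% interval -0.10 to 1.07), and the smallest p that of Slc39a6, a zinc importer, at 0.36 (95% interval 0.12 to 0.61). All 33 tested mitochondrial carriers and all 19 tested ABC transporters were bounded within 2-fold.

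Most cytosolic heat shock genes lay below 0. Of 17 tested, 2 had log2 fold changes above 0, while 5016 of all 10250 genes did. At an unadjusted p under 0.05, 7 were below and 1 above 0 (against 5.03% and 3.39% of all genes). The median was -0.22, -0.14 without N28M06A and D28M02G and -0.18 with litter as a random block. Without the litter N28M06 the list had 4 genes at that level, all below 0. Hspa1b, the inducible Hsp70, was at 8.34 to 114 normalized counts (median 30.9) under normal and 1.02 to 69.7 (median 12.7) under diabetic conditions, with a log2 fold change of -1.22 (95% interval -1.92 to -0.51) and an adjusted p of 0.375. Its near-identical copy Hspa1a, which can share reads with it and was named after its values were seen, was at 0 to 96.2 normalized counts (median 6.95) under normal and 0 to 19.8 (median 3.26) under diabetic conditions. Hsp90aa1, the inducible cytosolic Hsp90, gave -0.40 (95% interval -0.63 to -0.18), and Hspb1, a small heat shock protein, gave 0.60 (95% interval 0.11 to 1.09). In yolk sacs with 7 to 9 somite pairs the median of the list was 0.09.

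Among 15 tested immediate early genes, which respond within minutes to growth factors or handling, Atf3 and Jun were below and Fosl2 above 0 at an unadjusted p under 0.05. Bounds were wide, with 11 of 15 within 2-fold and 7 within 1.5-fold. Fos, named after its values were seen and too low for the filter, was at 2.37 to 76.1 normalized counts (median 13.3) under normal and 1.43 to 18.4 (median 5.78) under diabetic conditions. Of 32 tested genes of the unfolded protein and integrated stress response, 3 chaperone genes, Hspa5, Dnajb11 and Dnajc3, were below 0 at an unadjusted p under 0.05 (against 5.03% of all genes) and none above. When the litter N28M06 was left out, 0 genes of the list were at that level. Hspa5, the main chaperone of the endoplasmic reticulum, was at 4695 to 10631 normalized counts (median 6331) under normal and 4590.2 to 7976 (median 5407) under diabetic conditions, with a log2 fold change of -0.23 (95% interval -0.42 to -0.04). Of 32 antioxidant and glutathione genes, Sod1 and Gpx1 were below 0 at an unadjusted p under 0.05, all 32 were bounded within 2-fold, and the median moved from -0.09 to -0.02 without N28M06A and D28M02G. Sod1, the cytosolic superoxide dismutase, gave -0.32 (95% interval -0.62 to -0.03) with and -0.22 without both.

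The hypoxia response genes lay mostly above 0. Of 24 genes listed, 23 were tested, 0 passed, and 8 had an unadjusted p under 0.05 (34.8% of the 23, against 8.42% of all genes), 7 of them above 0 and 1, Pfkfb4, below. The median was 0.19, 0.19 without N28M06A and D28M02G and 0.15 with litter as a random block, against a median of 0.00 for all genes, and it was 0.14 in yolk sacs with 7 to 9 somite pairs and 0.02 in embryos. Egln1, the oxygen-dependent prolyl hydroxylase that marks HIF for destruction, was at 40.3 to 123 normalized counts (median 59.1) under normal and 43.03 to 127 (median 81.1) under diabetic conditions, with a log2 fold change of 0.28 (95% interval 0.01 to 0.55). Ankrd37, a small HIF target, was at 3.32 to 34.1 normalized counts (median 12.8) under normal and 6.15 to 70.5 (median 18.9) under diabetic conditions, with a log2 fold change of 0.62 (95% interval 0.03 to 1.21). P4ha2, a collagen prolyl hydroxylase, had the smallest p of the list, at 34.1 to 81.03 normalized counts (median 61.5) under normal and 54.1 to 89.5 (median 72.4) under diabetic conditions and a log2 fold change of 0.29 (95% interval 0.09 to 0.50). All 3 overlapped between groups, and each was highest in the diabetic library D28M36B. The number of list genes at an unadjusted p under 0.05 was 5 without D28M36, 2 without D28M53 and 5 without N28M06, with medians of 0.17, 0.11 and 0.10. Without D28M36, whose only library among the 34 is D28M36B, the log2 fold change of Ankrd37 was 0.41 (95% interval -0.14 to 0.95). That of Egln1 was 0.23 (95% interval -0.03 to 0.49), and without D28M53 they were 0.46 and 0.24. P4ha2 moved less, with 0.27 (95% interval 0.06 to 0.48) without D28M36 and 0.29 (95% interval 0.06 to 0.53) without D28M53.

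Adm and Ndrg1, also on that list, were highest in libraries of the litters D28M36 and D28M53. Adm, which encodes the vessel-dilating peptide adrenomedullin, was at 1.47 to 36.2 normalized counts (median 10.6) under normal and 3.07 to 165 (median 9.66) under diabetic conditions, with a log2 fold change of 1.21 (95% interval 0.20 to 2.22). Its 2 highest values were in libraries of the litter D28M53 and the third in D28M36B, the library with the highest trophoblast sum. The log2 fold change of Adm was 0.25 (95% interval -0.63 to 1.13) without D28M53 and 1.02 without D28M36. Ndrg1, a gene induced by hypoxia and by differentiation, was at 32.01 to 346 normalized counts (median 97.3) under normal and 60.8 to 758 (median 153) under diabetic conditions, with a log2 fold change of 0.75 (95% interval 0.12 to 1.39), and its highest values were in the 3 libraries above the normal range of the trophoblast sum. Satb1, a chromatin organizer that is not on the list, was at 4.87 to 174 normalized counts (median 27.9) under normal and 11.3 to 463 (median 46.7) under diabetic conditions with the same 3 libraries highest. Ndrg1 gave 0.48 without D28M36 and 0.56 without D28M53, and Satb1 gave 0.68 and 0.69. Adm and Egln1 without N28M06A and D28M02G gave log2 fold changes of 1.24 and 0.29. Egln1, Ankrd37, Ndrg1 and Satb1 were chosen after their values were seen, and the part of trophoblast in these values was not tested.

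The p53 list gave 1 gene at an unadjusted p under 0.05, Trp53 itself, at 17.6 to 66.1 normalized counts (median 34.3) under normal and 14.6 to 96.2 (median 48.7) under diabetic conditions and a log2 fold change of 0.43 (95% interval 0.03 to 0.82). The median of the 17 tested genes was 0.14, and 0.07 without N28M06A and D28M02G. In the interferon and inflammatory list, 8 of 14 tested genes had log2 fold changes above 0. Of these, Ifitm2 and H2-K1 had an unadjusted p under 0.05 (14.3% of the 14, against 3.39% of all genes above 0). H2-K1, a class I histocompatibility gene, was at 1.39 to 15.4 normalized counts (median 6.95) under normal and 3.07 to 26.9 (median 10.7) under diabetic conditions, with a log2 fold change of 0.61 (95% interval 0.11 to 1.11). The decidual sum described above exceeded the highest normal library in 9 diabetic yolk sacs, and its part in that value was not tested.

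Blood island genes lay mostly below 0. Of 12 primitive erythroid genes, all were tested, 0 passed, 4 (Hbb-y, Klf1 and Alas2 among them) had an unadjusted p under 0.05 below 0 (33.3% of the 12, against 5.03% of all genes), and 11 of 12 had log2 fold changes below 0. The median was -0.23, -0.19 without N28M06A and D28M02G and -0.20 with litter as a random block, and in yolk sacs with 7 to 9 somite pairs it was 0.00. Without the normal litter N28M06, 0 of the 12 had an unadjusted p under 0.05 and the median was -0.13, and without D28M53 it was 1 gene. Hbb-y, an embryonic beta globin, was at 608 to 4449 normalized counts (median 1341) under normal and 341 to 2572 (median 1016) under diabetic conditions, with a log2 fold change of -0.67 (95% interval -1.25 to -0.08). Klf1, the erythroid Kruppel-like factor, was at 50.1 to 163 normalized counts (median 92.4) under normal and 41.6 to 116 (median 66.8) under diabetic conditions, with a log2 fold change of -0.37 (95% interval -0.66 to -0.09). Hbb-bh1, the most abundant globin transcript here, gave -0.31 (95% interval -0.69 to 0.07), and Hba-x, the embryonic alpha globin, 0.08 (95% interval -0.31 to 0.48). The groups overlapped for each of these genes.

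Some enzymes of heme synthesis lay below 0 as well. Among 16 tested genes of the globin and heme list 5 were below 0 at an unadjusted p under 0.05, Hbb-y, Alas2, Uros and Urod among them. They were 31.25% of the 16, against 5.03% of all genes. None was above 0 at that level, while 6 of the 16 had log2 fold changes above 0. Without the litter N28M06 the list had 2 genes at that level, both above 0, the adult globin Hbb-bs among them. Without D28M53 it had 1, below 0. Urod, uroporphyrinogen decarboxylase, was at 69.02 to 263 normalized counts (median 113) under normal and 59.9 to 131 (median 92.7) under diabetic conditions, with a log2 fold change of -0.34 (95% interval -0.59 to -0.09). The adult beta globin Hbb-bs gave 0.62 (95% interval -0.02 to 1.27) and was highest in a library of the litter D28M53. Of 15 tested genes of iron uptake and storage, 0 had an unadjusted p under 0.05, and 14 were bounded within 1.5-fold. Among 16 tested blood transcription factors and receptors, Klf1 alone was past that level. Tal1, a master factor of blood formation, was at 62.8 to 301 normalized counts (median 173) under normal and 70.8 to 253 (median 163) under diabetic conditions, with a log2 fold change of -0.08 (95% interval -0.43 to 0.26).

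Vessel and mesoderm lists each held 1 gene at that level. Of 25 tested endothelial genes, Etv2, an early factor of endothelial and blood fate, was the only one at an unadjusted p under 0.05, at 2.01 to 18.5 normalized counts (median 8.05) under normal and 0.993 to 25.8 (median 12.98) under diabetic conditions and a log2 fold change of 0.50 (95% interval 0.01 to 0.98). Kdr, the main receptor of vascular endothelial growth factor, was the most abundant and gave -0.04 (95% interval -0.33 to 0.25). All 25 were bounded within 2-fold, and the median went from 0.09 to -0.02 without N28M06A and D28M02G. Of 19 tested mesoderm genes, Hand1, a factor of extraembryonic mesoderm, was above 0 at an unadjusted p under 0.05, at 59.3 to 336 normalized counts (median 198) under normal and 182 to 368 (median 252) under diabetic conditions and a log2 fold change of 0.43 (95% interval 0.13 to 0.72). Of 21 tested collagen and laminin genes, 16 had log2 fold changes above 0. Nid1, which links basement membrane networks, was the only one at an unadjusted p under 0.05, at 0.36 (95% interval 0.06 to 0.67). All 21 were bounded within 2-fold. Of the tissues next to the yolk sac, parietal endoderm had 9 of 12 markers tested with Nid1 alone at that level, and amnion and allantois had 4 of 7, embryo proper 3 of 16, decidua 2 of 14 and the leukocyte and maternal blood list 2 of 15, with 0 at that level. Those 2 of the last list were the adult globins Hbb-bs and Hbb-bt, and no leukocyte gene was tested. Both were above 0 at that level without the litter N28M06, with a median of 0.85.

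Signaling and growth lists held few genes at that level. Among 35 tested ligands, receptors and feedback genes of the BMP, Wnt, FGF and hedgehog pathways, Bmp2 and Acvr2a were above and none below 0 at an unadjusted p under 0.05. The list had 1 gene at that level, below 0, without the litter N28M06. Bmp2, a ligand from the endoderm, was at 24.9 to 124 normalized counts (median 82.7) under normal and 70.1 to 146 (median 106) under diabetic conditions, with a log2 fold change of 0.33 (95% interval 0.05 to 0.61). Among 24 imprinted genes Phlda2, which restrains placental growth, was the only one at that level, at 0.36 (95% interval 0.03 to 0.69), and H19, the most abundant of them, gave 0.03 (95% interval -0.13 to 0.19). All 38 cell cycle genes were bounded within 2-fold and 36 within 1.5-fold. Of 23 tested genes of folate, serine and one-carbon metabolism, 3 (Slc19a1, Shmt2 and Mat2a) were above and 3 (Tyms and Cth among them) below 0 at an unadjusted p under 0.05. They were 26.1% of the 23, against 8.42% of all genes. Of 12 tested genes of retinoic acid metabolism, 3 had log2 fold changes above 0. Crabp2, a binding protein that carries retinoic acid to its receptor, was the only one at an unadjusted p under 0.05, at -0.48 (95% interval -0.92 to -0.03). Among 22 epithelial genes 2 were above 0 at that level, Dsp, of desmosomes, among them. Of 21 tested amino acid transporters, 13 had log2 fold changes above 0. Slc6a6, the taurine transporter, was the only one at an unadjusted p under 0.05, at 0.28 (95% interval 0.02 to 0.54). Among 9 tested replication histone genes, 6 had log2 fold changes above 0. Hist2h2ac was above and Hist3h2a below 0 at an unadjusted p under 0.05 (22.2% of the 9, against 8.42% of all genes).

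**Figure D4:**
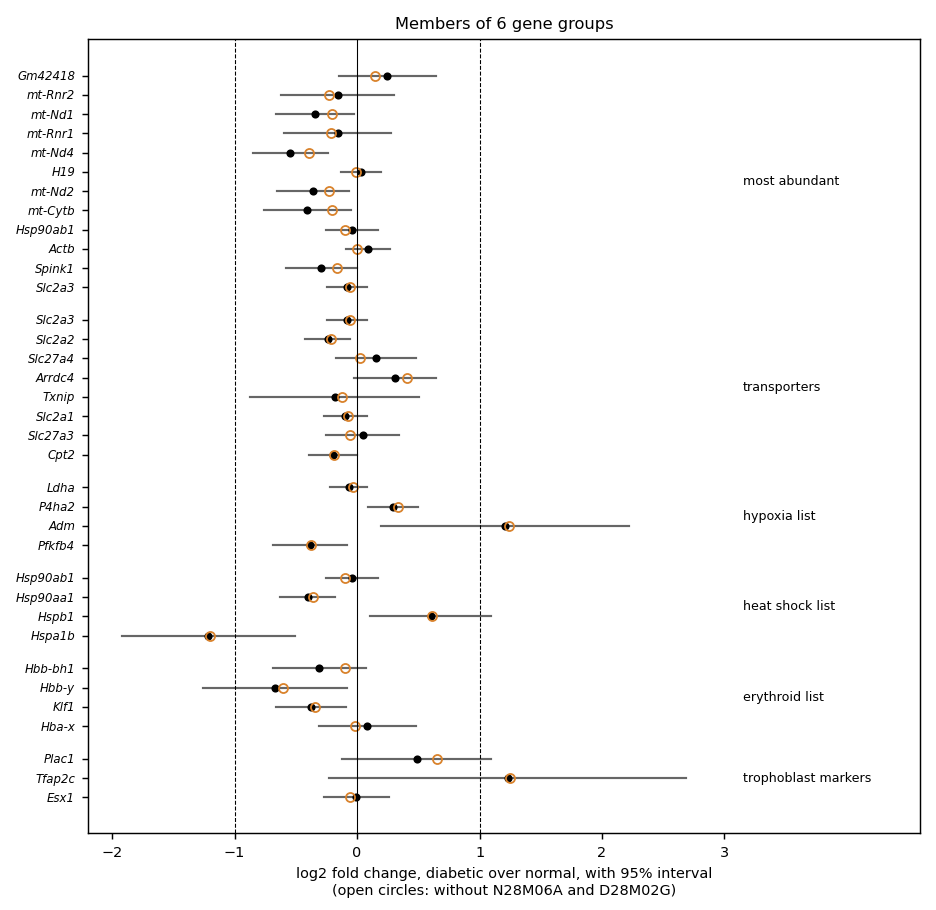
Log2 fold change with its 95% interval for the most abundant genes, the transporters and members of 4 lists, from all 34 libraries (filled) and without N28M06A and D28M02G (open orange circles). Among the heat shock and hypoxia genes shown, Hspa1b and Adm lie farthest from 0, at -1.22 (95% interval -1.92 to -0.51) and 1.21 (95% interval 0.20 to 2.22).

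The lists of ribosomal and respiratory genes moved when N28M06A was left out. Of 80 tested cytosolic ribosomal protein genes, 12 were below 0 at an unadjusted p under 0.05 and 76 had log2 fold changes below 0, with a median of -0.22. Of all 10250 genes, 5.03% were below 0 at that level and 5016 had a log2 fold change above 0. Without N28M06A alone the list had 3 genes at that level and a median of -0.08, and without the litter N28M06 it had 2 and -0.04, with 2 to 27 over the 19 fits that left out 1 litter. Without both libraries the median was -0.06. The normal library N28M06A held 7.32% of its counts in these genes. Many ribosomal protein genes have near-identical copies elsewhere in the genome, so their counts are uncertain. Rps6, of the small subunit, was at 7.43 to 66.4 normalized counts (median 26.6) under normal and 5.05 to 37.1 (median 21.9) under diabetic conditions, with a log2 fold change of -0.50 (95% interval -0.98 to -0.01) with and -0.44 without both. Of 76 tested nuclear-encoded respiratory chain genes, 17 were below and 0 above 0 at an unadjusted p under 0.05 (22.4% of the 76, against 5.03% of all genes below 0), and the median went from -0.17 to -0.06. Without N28M06A alone 5 were below and 1 above 0 at that level, without the litter N28M06 there were 2, both above 0, and without D28M53 there were 7, all below.

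Among 9 tested transcripts of the mitochondrial genome, mt-Nd1, mt-Nd2, mt-Nd4 and mt-Cytb were below and mt-Nd6 above 0 at an unadjusted p under 0.05, with a median of -0.30, or -0.21 without both libraries and -0.14 with litter as a random block. Without the litter N28M06 the median was -0.07, and 1 gene was above and 1 below 0 at that level. mt-Nd4, a subunit of complex I, was at 12126 to 53988 normalized counts (median 19088) under normal and 10992 to 20604 (median 14324) under diabetic conditions, with a log2 fold change of -0.54 (95% interval -0.85 to -0.24) with and -0.39 without both. mt-Nd6, the 1 protein gene on the other strand, was at 46.6 to 629.6 normalized counts (median 167) under normal and 93.2 to 1222 (median 258) under diabetic conditions, with a log2 fold change of 0.83 (95% interval 0.17 to 1.48). As the strand setting of the counting is not given in the sources used here, its reads and those of transcripts opposite it cannot be told apart. In yolk sacs with 7 to 9 somite pairs mt-Nd6 passed the test, at a log2 fold change of 1.79. mt-Tq, a mitochondrial tRNA gene chosen after its values were seen, gave 1.38 (95% interval 0.54 to 2.21) here and 2.06 at the later stage, where it passed too. Mitochondrial transcripts held between 4.03 and 12.4% of counts in normal and 4.90 and 9.33% in diabetic libraries.

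The most abundant transcripts carried no difference that passed. Of the 12 genes with the highest mean count, 6 were mitochondrial, and the others were Gm42418, H19, Hsp90ab1, Actb, Spink1 and Slc2a3. Gm42418 ranged from 56032 to 317129 normalized counts in normal and from 81918 to 393637 in diabetic libraries. Hsp90ab1, the constitutive cytosolic Hsp90, was at 7668 to 15132 normalized counts (median 10809.7) under normal and 7777 to 14397 (median 11071) under diabetic conditions, with a log2 fold change of -0.04 (95% interval -0.25 to 0.17). Actb, beta-actin, was at 6722 to 11270.2 normalized counts (median 9326) under normal and 7387 to 16011 (median 9433) under diabetic conditions, with a log2 fold change of 0.09 (95% interval -0.09 to 0.27).

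Whether the difference between diabetic and normal yolk sacs itself differed between stages was tested as an interaction with the 32 yolk sacs of 7 to 9 somite pairs. By edgeR, 0 of 10857 genes had an adjusted p under 0.05, 634 genes (5.84%) were at an unadjusted p under 0.05, and the counts by DESeq2 were 0 and 889. The 5 genes with the smallest p were Zzz3, Hist2h2ac, Wdhd1, Bfar and Fbxo22. Rras, with an effect of 0.61 here and 0.02 at the later stage, had an adjusted p of 0.527 for that difference, and Atf3, with -1.03 and 0.29, one of 0.394.

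The same question was asked of yolk sac against embryo in the 68 libraries of 34 concepti. By edgeR, 0 of 11677 genes had an adjusted p under 0.05 for the difference of the effects, 895 genes (7.66%) were at an unadjusted p under 0.05, and the counts by DESeq2 were 0 and 1216. With the conceptus as a random block the count was 0 as well. Gdpd2, Kitl, Nrcam and Rin1 were among the 5 genes with the smallest p. Kitl, the ligand of the Kit receptor, had a log2 fold change of -0.17 in yolk sacs and 0.46 in embryos (adjusted p of the difference = 0.389). The larger number of calls in embryos is therefore not shown to be a difference between the tissues.

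Sex and somite number were also compared in the same 34 libraries. Between male and female yolk sacs, with maternal condition in the fit, 8 of 10390 genes were called (0.077%), among them Xist and the Y-linked genes Ddx3y, Eif2s3y, Kdm5d and Uty. Kdm5d, a histone demethylase on the Y chromosome, had a log2 fold change, male over female, of 6.61. As Xist and Y-linked counts had already matched the sex labels, these calls do not measure how small a difference could be found. Between yolk sacs with 6 and with 5 somite pairs, 0 of 10614 genes were called and 512 had an unadjusted p under 0.05.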

How the data were processed

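RNA of whole visceral yolk sacs was sequenced by 3′ QuantSeq FWD with unique molecular identifiers (UMIs). The authors aligned reads with STAR to mm10, collapsed them by UMI with collapse_UMI_Bam and counted them per gene with HTSeq, and versions, annotation and strand setting are not given in the sources used here. The deposited values are counts without normalization, for 47643 genes and 136 libraries. A 3′ count per transcript does not grow with transcript length, and UMI collapse removes copies made by amplification. Reads shared by near-identical genes cannot be assigned. GENCODE M21 gave positions (GRCm38) and symbols for 25672 of the 26077 genes that the deposit lists without one.

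Groups came from the labels, with the stage of a yolk sac from the somite number of the embryo library of the same title stem. Title stems also gave the litter. A repeat library of the normal yolk sac N28M06C (Spearman correlation with its original 0.990) was left out. Diabetic and normal libraries were compared in edgeR 4.0.16 under R 4.3.3 (TMM, filterByExpr with a minimum count of 10, glmQLFit, glmQLFTest), and a Benjamini-Hochberg adjusted p under 0.05 counted as a call. The 95% interval of the log2 fold change used the standard error from that fit (the estimate divided by the square root of F). Normalized counts were obtained by dividing by DESeq2 1.42.0 size factors estimated over the 34 libraries. Litter means of log2 (normalized count + 1) are described without a test, as their genes were picked by p in the same libraries. Where littermates are counted as separate samples, p-values measure the spread between libraries, and littermates correlated at 0.165 by limma 3.58.1. The fits were checked on simulated counts with the same spread for every gene and no link between littermates. That check does not cover the correlation of littermates. The intervals cover counting error and the spread between libraries, differences between concepti included. In the main fit they treat littermates as separate samples.

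Genes named are those with the 5 smallest p in each direction and an average of 10 normalized counts or more in either group (no gene was called), the 12 with the highest mean, from each of 48 lists the most abundant gene, the one with the smallest p and the highest and the lowest log2 fold change, the study's transporters with Txnip and Arrdc4, the 5 with the smallest p in each interaction, and genes said to be chosen after their values were seen. The groups, members and lists were chosen with earlier results of these data known. Lists are described by counts and medians and were not tested. Some genes that these rules name are not reported here. Alternatives were DESeq2, RLE normalization, other filters, somite number and sex or title number (23, 24 or 28) as covariates, litter as a random block (voom and duplicateCorrelation of limma), sums of counts over littermates, all yolk sacs in 1 fit, the repeat library added, title number 28 alone, leaving out each litter in turn, and, chosen after the data were seen, leaving out N28M06A, D28M02G or both, and list counts without single litters or libraries.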

Additional observations from a re-analysis of the deposited data

How the results depend on the processing

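The number of genes called was 0 in the main comparison and stayed 0 under RLE normalization, without the filter, with a mean count of at least 10, with litter as a random block, with counts summed per litter, with all yolk sacs in 1 fit, with the repeat library added, with title number 28 alone, without the yolk sac whose embryo has another sex label, and without D28M02G alone or together with N28M06A. It was 4 in DESeq2, of 26858 genes with a p-value. It was 1 with somite number and sex as covariates, 1 with the title number as a covariate, and 2 without N28M06A. Over the 19 fits that left out 1 litter it was 0 to 3, with 3 (Rras, Atf3 and Fos) without N28M06 and 1 (Rras) without D23M11. Of the list members, 2 were called in DESeq2, 1 without N28M06A, and 0 to 2 with 1 litter left out. The cause was not tested. The number at an unadjusted p under 0.05 was 863 in the main comparison, 411 with litter as a random block, 474 with counts summed per litter, 1549 with title number 28 alone, 1829 without the filter and 1236 in DESeq2, and 499 to 1202 with 1 litter left out. Of all genes with a count, 26858, the interval lay within 2-fold for 13009 without the filter. Within 2-fold were 10727 of 11038 genes with counts summed per litter, 9777 of 10149 with title number 28 alone and 10038 to 10137 with 1 litter left out. Of the log2 fold changes of single genes over all alternatives, 6357 moved by less than 1 standard error, 124 moved by more, and 9 (of Rras, Atf3 and Elovl5) passed the threshold. Both interactions gave 0 calls under every alternative run for them, the repeat of the tissue interaction with the conceptus as a block included. The correlation of embryo and yolk sac of 1 conceptus was 0.0760. Diabetic libraries could not be paired with normal ones, because diabetic and normal concepti share no dam. The numbers that name replicates within a group pair no libraries.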
